A study of Ovis aries with 9 samples.

Results

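Reads from Y RNAs made up 2759 of the 3309646 distinct sequences found in the sperm small RNA of F1 rams, and they were taken as the sequences whose deposited annotation held the term Y RNA with no ovine miRNA, tRNA or rRNA term beside it. The rams were sons of ewes that were overfed (OVER), kept on restricted feed (RES) or fed a standard diet (CON) in pregnancy, and the labels give all of them as wild type. The groups therefore differ in the mother's feeding, and the labels used here give neither the breed and age of the rams nor the number of animals behind a sample. Per the labels' protocols, somatic cells in the semen were lysed with detergent, and RNA of the washed sperm, selected at 15 to 50 nt, was made into libraries. Of the 3 samples labelled per group, all 3 tables were identical in sequences and read counts, so OVER, RES and CON stand for 1 library each. Differences between them have no replicate behind them and were not tested, and the intervals given cover counting error only.

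The OVER, RES and CON libraries held 8287937, 13160116 and 9983895 reads, in 1296002, 1249810 and 1311597 distinct sequences of 15 to 42 nt. Levels are given as RPM, the reads of a sequence per 1000000 reads of its library. A share of 3 reads, the limit that a count of 0 allows, was 0.362 RPM in OVER, 0.228 RPM in RES and 0.300 RPM in CON. The OVER library had the shorter reads, with 29.6% of them at 15 to 20 nt, against 10.3% in RES and 5.98% in CON. Of 10 marker miRNAs looked for, 4 carried an ovine name in the tables. Listed with the germ cell markers, miR-191 stood at 6524 RPM in OVER, 7570 RPM in RES and 4272 RPM in CON. Whether it is limited to germ cells was not tested. The epithelial miR-200a, miR-200b and miR-200c all had reads, and together they stood at 1094 RPM in OVER, 133.9 RPM in RES and 463.9 RPM in CON. The other listed germ cell markers, miR-34c and miR-449a, carried no ovine name. The same holds for the markers of red and white blood cells, and none of these were analysed here.

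Y RNAs are short transcripts of RNA polymerase III that are bound by the Ro60 and La proteins and have roles in RNA quality control and in the start of DNA replication. Their 5′ and 3′ ends pair with each other into a stem that carries the Ro60 site, and the middle of the molecule forms a loop. The human genome has the forms Y1, Y3, Y4 and Y5, and fragments cut from either end of them are found in sperm, semen and blood. The tables give a single Y RNA term, so the sequences were typed by motifs known from human Y RNAs. A read that held GGTCCGA, the stretch that the 5′ arms share, was taken as a 5′-side read and was typed by the next bases, which were AGG for Y1, TGG for Y4, GTGC for Y3 and GTGT for Y5. A read that held TTGACT was taken as a 3′-side read, with AGTC after it for Y1, GGC for Y4, AGCC for Y3 and AGCT for Y5. Many 3′-side reads ended before those bases. They were therefore also typed by the bases before the motif, CTACTGC for Y1, CTGCTAA for Y4 and CTGCTTC for Y3, a choice made after the reads were seen.

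The leading sequence of each group is printed because the types rest on a few bases. In the 5′ sequences the capitals mark the typing bases, and in the 3′ sequences the bases that follow the TTGACT motif. All are written as DNA, as in the deposited tables.
Y1, 5′ side: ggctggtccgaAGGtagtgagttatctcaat
Y4, 5′ side: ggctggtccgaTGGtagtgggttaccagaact
Y3, 5′ side: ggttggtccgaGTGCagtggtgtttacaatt
Unnamed 5′ group: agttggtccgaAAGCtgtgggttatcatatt
Y1, 3′ side: cttctcactactgcacttgactAGTCtt
Y4, 3′ side: ccccccactgctaaatttgactGGCttt
Y3, 3′ side: ctcccactgcttcacttgactAGCCtt
Unnamed 3′ group: aaccccacaaccatgtttgactGACTg
The Y4 sequence had the same base as the Y1 sequence at 21 of the first 23 positions and differed by A12T and A20G, with positions counted from 1 at the 5′ end and the base of Y1 written first. The Y3 sequence had 16 of 23 positions in common with Y1, and the unnamed 5′ sequence 17 of 23. The unnamed sequences, with AAGC after the 5′ motif or with CCATGT in the 3′-side read, matched none of the type motifs and were given no type name. The leading Y1 arms held the reverse complement of each other over 8 bases, ctcactac, at bases 14 to 21 of the 5′ sequence and 4 to 11 of the 3′ sequence. The unnamed 5′ and 3′ sequences held such a stretch of 6 bases, cccaca, and the leading Y4 arms one of 6 bases, cccact. Stretches of 3 to 8 bases were also found between arms of different groups, so the pairing does not by itself join the unnamed arms.

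Y RNA fragments were the more abundant in RES and the less abundant in OVER. They stood at 41640 RPM in OVER (41504 to 41776, exact Clopper-Pearson 95% interval), at 154340 RPM in RES (154145 to 154535) and at 74054 RPM in CON (73892 to 74217). That is 4.16% of all reads in OVER, 15.4% in RES and 7.41% in CON. The log2 ratio was -0.83 for OVER over CON (-0.84 to -0.82, exact binomial interval of the counts) and 1.06 for RES over CON (1.06 to 1.06). For OVER over RES it was -1.89, which is 3.71-fold lower in OVER. In bulk RNA, fewer cells that carry the fragments and fewer fragments per cell cannot be told apart.

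The order of OVER and CON depended on which reads the level was set against. Among reads of 29 to 34 nt, the window that holds 93.3% of Y RNA reads in OVER, 96.1% in RES and 95.0% in CON, Y RNA fragments were 18.8% of reads in OVER, 34.3% in RES and 14.2% in CON. On that scale OVER stood above CON, with a log2 ratio of 0.40, and RES stood above CON by 1.27. The window itself held 20.7% of all OVER reads, 43.3% of RES reads and 49.4% of CON reads. Among reads of exactly 32 nt the Y RNA share was 48.6% in OVER, 75.6% in RES and 45.6% in CON. At 33 nt it was 18.2% in OVER, 65.4% in RES and 29.3% in CON. In the RES library, Y RNA fragments thus outnumbered all other reads at 31 nt (64.4%), at 32 nt and at 33 nt. The part of the OVER library's short reads in the lower RPM was not tested.

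**Figure D1:**
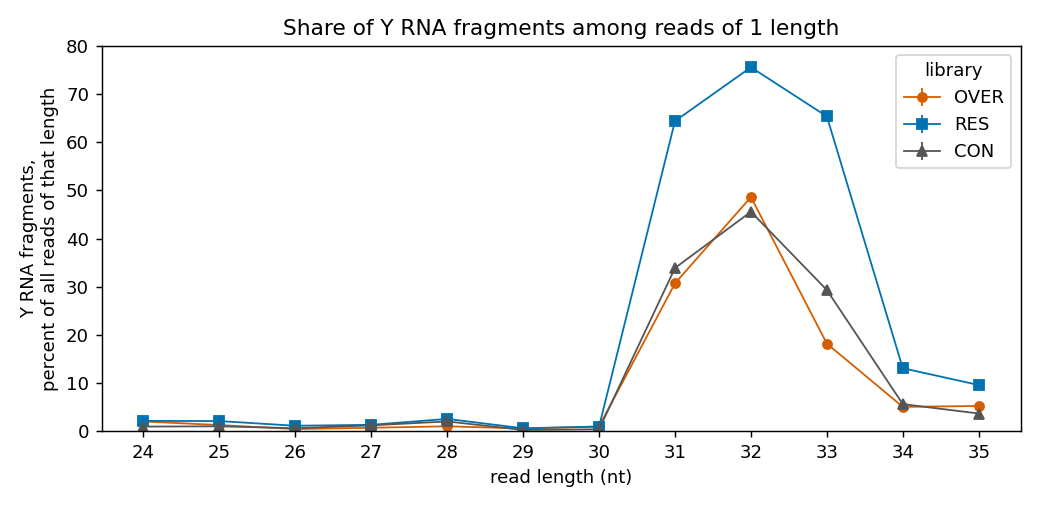
Share of Y RNA fragments among all reads of 1 length (y axis, percent) by read length (x axis, nt) in the OVER, RES and CON libraries, with exact 95% intervals that are smaller than the symbols. RES is the highest from 31 to 34 nt, with 75.6% at 32 nt, while OVER (48.6%) and CON (45.6%) lie close to each other there.

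The 5′ arm of Y1 made up nearly the whole class. Its 842 sequences stood at 37712 RPM in OVER, 149875 RPM in RES and 68863 RPM in CON, which is 90.6%, 97.1% and 93% of Y RNA reads in these libraries. All 1225 sequences with the 5′ motif held 94.6% of Y RNA reads in OVER, 97.3% in RES and 96.2% in CON. The 882 sequences with the 3′ motif held 4.79% in OVER, 2.39% in RES and 3.48% in CON. The other 652 sequences held neither motif and stood at 239.7 RPM in OVER, 428.3 RPM in RES and 220.3 RPM in CON. The Y1 log2 ratios, -0.87 for OVER over CON, 1.12 for RES over CON and -1.99 for OVER over RES, are close to those of the whole class because Y1 sets them.

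The 5′ arm of Y4 had another order of libraries. Its 212 sequences stood at 1608 RPM in OVER, 223.1 RPM in RES and 2193 RPM in CON. RES was 9.83-fold below CON (log2 -3.30, -3.35 to -3.24) and OVER was 7.21-fold above RES (log2 2.85), while the OVER over CON ratio was -0.45, within 2-fold. Among reads of 29 to 34 nt that last ratio was 0.82, and RES stayed below CON at -3.10. Per 100 reads of the Y1 5′ arm, counted in the same library and so free of the library size, there were 4.26 reads of the Y4 5′ arm in OVER, 0.149 in RES and 3.18 in CON. RES was 21.4-fold below CON by this measure. OVER and CON were 1.34-fold apart.

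The rarer groups were likewise low in RES relative to Y1. The unnamed 5′ group stood at 55.5 RPM in OVER, 19.98 RPM in RES and 133.3 RPM in CON, a log2 ratio of -2.74 for RES over CON and -1.26 for OVER over CON. Per 100 reads of Y1 it had 0.147 reads in OVER, 0.0133 in RES and 0.194 in CON. The Y3 5′ arm had only 50 reads in OVER, 70 in RES and 206 in CON, or 6.03, 5.32 and 20.6 RPM. Both OVER and RES were below CON for Y3, with log2 ratios of -1.77 (-2.25 to -1.32) and -1.96 (-2.37 to -1.56), and the interval of OVER over RES, -0.37 to 0.73, held 0. The bases that mark human Y5 were found in 0 reads on either side in any library, which allows up to 0.362 RPM in OVER, 0.228 RPM in RES and 0.300 RPM in CON. This limit covers reads with those bases, not a sheep Y5 with other bases, and whether the unnamed groups belong to such a form was not tested.

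The 3′-side reads were likewise lowest in RES for Y4 and the unnamed group. Their OVER over CON ratios did not repeat those of the 5′ side. The unnamed 3′ group had -0.09, against -1.26 for the unnamed 5′ group, and for Y4 the ratio depended on the typing. Typed by the bases before the motif, the Y1 3′ arm stood at 1815 RPM in OVER, 3658 RPM in RES and 2422 RPM in CON. The Y4 3′ arm stood at 10.6 RPM in OVER, 2.81 RPM in RES and 46.7 RPM in CON, so that RES was 25.1-fold below CON per read of the Y1 3′ arm. The RES value rests on 37 reads, and the 25.1-fold gap is that of this typing. The RES over CON ratio of the Y4 3′ arm was -4.05. Typed by the bases after the motif, on 44 reads in RES and 391 in CON, it was -3.55. The OVER over CON ratio of this arm was -2.14, and -0.25 when typed by the bases after the motif. The unnamed 3′ group stood at 85.9 RPM in OVER, 13.8 RPM in RES and 91.6 RPM in CON, 10.01-fold lower in RES than in CON per read of the Y1 3′ arm. The Y3 3′ arm was read differently by its typing. It stood at 6.76 RPM in OVER, 13.5 RPM in RES and 7.81 RPM in CON, so its RES over CON ratio of 0.79 (0.40 to 1.19) had the opposite sign to that of the Y3 5′ arm. Typed by the bases after the motif, on 19 reads in OVER, 20 in RES and 27 in CON, the ratio was -0.83 (-1.74 to 0.06), so no direction can be given for this arm. All of these groups were counted in the same 3 libraries, so the low values in RES are not independent of each other. In the same libraries the miR-200 sum was also the lowest in RES and the highest in OVER, and its part in these values was not tested.

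**Figure D2:**
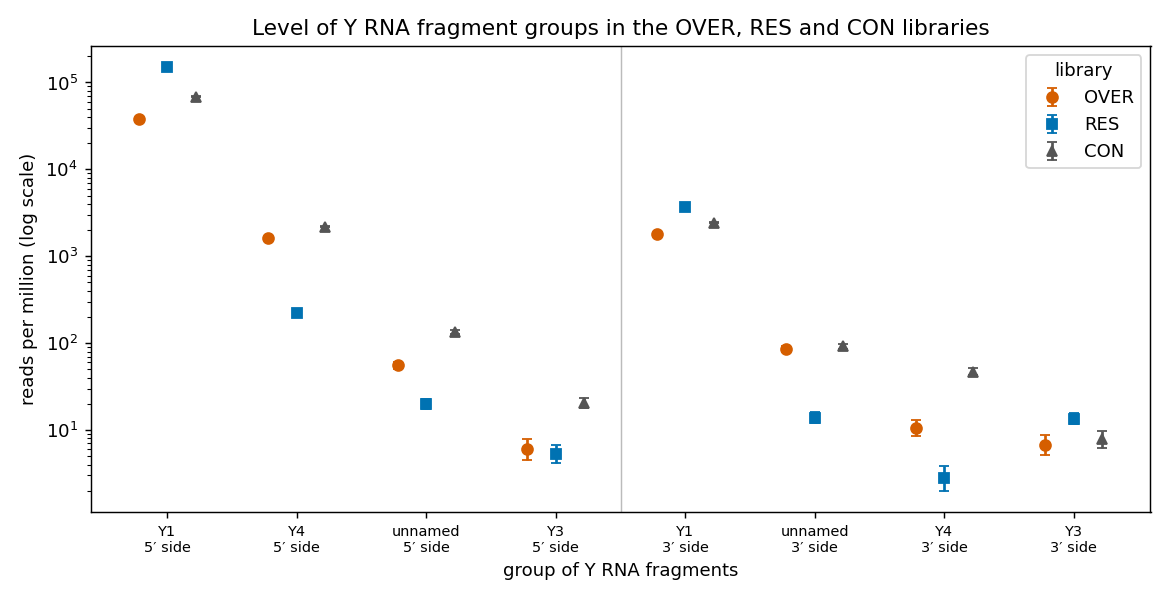
Level of each group of Y RNA fragments (x axis) in RPM on a log scale (y axis) in the OVER, RES and CON libraries, with exact 95% intervals that cover counting error. For Y1 the RES library is the highest on both sides, while for Y4 (223.1 RPM on the 5′ side) and the unnamed groups it is the lowest.

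The ends of the Y1 5′ fragment varied by a few bases, whereas nearly all reads typed as its 5′ side had the same start. Of the Y1 5′-side reads, 99.3% began at base 1 in each of the 3 libraries. Only starts at bases 1 to 5 could be counted, since a read so typed must hold all of GGTCCGA. Reads that start further in are among those with neither motif. The ladder of end points is printed with the bases after base 30 in capitals.
Ending at base 30: ggctggtccgaaggtagtgagttatctcaa
Ending at base 31: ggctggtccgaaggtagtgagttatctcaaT
Ending at base 32: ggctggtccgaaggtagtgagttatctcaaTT
Ending at base 33: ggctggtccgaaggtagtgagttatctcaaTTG
Ending at base 34: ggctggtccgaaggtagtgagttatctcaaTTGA
The 31-nt form stood at 14776 RPM in OVER, 56666 RPM in RES and 22578 RPM in CON. The 32-nt form stood at 15378 RPM in OVER, 52529 RPM in RES and 24901 RPM in CON. The 33-nt form stood at 4844 RPM in OVER, 31732 RPM in RES and 16211 RPM in CON. In RPM the OVER to CON gap was thus larger for the longer forms. The log2 ratios were -0.61 at 31 nt, -0.70 at 32 nt and -1.74 at 33 nt. For RES over CON the same forms had 1.33, 1.08 and 0.97. These ratios are set against reads of all lengths. Among all reads of 31 nt, Y RNA fragments of any type were 30.7% in OVER and 33.9% in CON. They were 48.6% and 45.6% at 32 nt, and 18.2% and 29.3% at 33 nt. The part of the library lengths in the gap was not tested.

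Within the fragment, the shares of the 31-nt and the 33-nt form differed between the libraries in opposite directions. Among the reads that matched the Y1 5′ sequence exactly from base 1, 40.8% ended at base 31 in OVER, 39.0% in RES and 34.2% in CON. At base 33 ended 13.4% in OVER, 21.8% in RES and 24.6% in CON. For each read of 31 nt there were 0.328 reads of 33 nt in OVER, 0.560 in RES and 0.718 in CON. The Y4 5′ fragment did not show the same order. It ended at base 32 in 72.2% of exact reads in OVER, 77.3% in RES and 74.2% in CON, and at base 33 in 17.8% in OVER, 11.2% in RES and 12.7% in CON. The shorter ends of Y1 in OVER are thus not matched by shorter ends of Y4, whose 33-nt share was the highest in OVER.

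The ends of the Y1 3′ fragment fell into a short group around bases 24 and 25 and a long group at bases 27 and 28, and the libraries differed in the share of each. Its ends are printed with the bases after base 23 in capitals.
Ending at base 23: cttctcactactgcacttgacta
Ending at base 24: cttctcactactgcacttgactaG
Ending at base 25: cttctcactactgcacttgactaGT
Ending at base 28: cttctcactactgcacttgactaGTCTT
The 24-nt form stood at 686.5 RPM in OVER, 559.6 RPM in RES and 192.9 RPM in CON. The 25-nt form stood at 258.7 RPM in OVER, 578.5 RPM in RES and 193.2 RPM in CON. The 28-nt form stood at 99.3 RPM in OVER, 737.5 RPM in RES and 874.1 RPM in CON. OVER was thus 3.56-fold above CON in RPM for the 24-nt form and 8.80-fold below it for the 28-nt form, from the same start base. Among all reads of 24 nt, Y RNA fragments of any type were 2.03% in OVER and 0.969% in CON. Among all reads of 28 nt they were 1.03% and 2.04%. The part of the library lengths in these gaps was not tested. Of the exact reads of the Y1 3′ fragment, 59% ended at base 24 in OVER, 23.5% in RES and 11.3% in CON, and 8.53% ended at base 28 in OVER, 30.9% in RES and 51.2% in CON. The end at base 25 took 22.2% in OVER, 24.3% in RES and 11.3% in CON. Ends at bases 22 to 25 together took 85.7% in OVER, 54.4% in RES and 27.0% in CON, so RES lay between the others. This is also why typing by the bases after the motif, which short reads lack, gave a Y1 3′ level of 203.5 RPM in OVER, 1218 RPM in RES and 1465 RPM in CON, with a RES over CON ratio of -0.27 in place of 0.59.

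**Figure D3:**
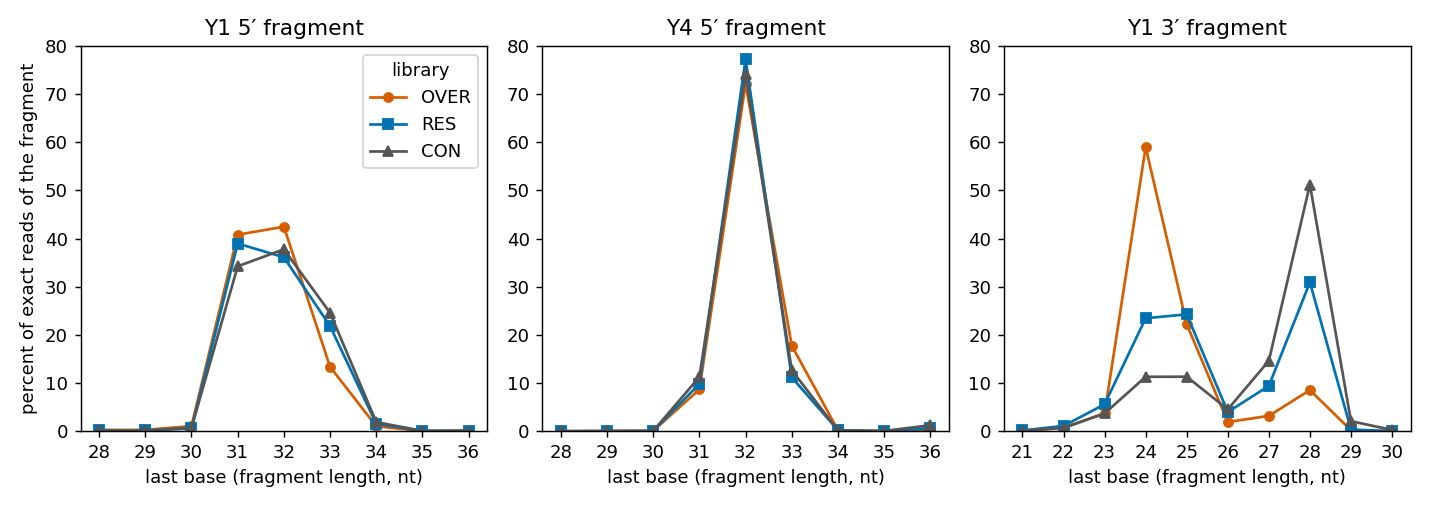
Percent of exact reads of a fragment (y axis) that end at each base (x axis, also the fragment length in nt) for the Y1 5′, Y4 5′ and Y1 3′ fragments in the OVER, RES and CON libraries. In the Y1 3′ panel the value at 24 nt is highest in OVER (59%) and the one at 28 nt is highest in CON (51.2%).

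Lengths followed the types. The mean length of Y RNA reads was 31.2 nt in OVER, 31.7 nt in RES and 31.7 nt in CON, although the mean over all reads of these libraries was 23.3, 27.2 and 28.5 nt. Reads of 31 to 33 nt made up 90.7% of Y RNA reads in OVER, 93.5% in RES and 91.9% in CON. Reads of 15 to 20 nt made up 0.737% in OVER, 0.113% in RES and 0.0546% in CON. The low groups carried more short reads than Y1: in the Y3 5′ arm 32% of OVER reads had 15 to 20 nt, against 12.9% in RES and 1.94% in CON, and in the unnamed 3′ group 30.6%, 15.4% and 2.40%. In OVER, the library with the shorter reads, the rare groups thus held a larger share of short reads than the Y1 and Y4 5′ arms, with 0.269% and 0.510%.

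A few sequences held most of the reads. The first sequence held 36.9% of Y RNA reads in OVER, where it was the 32-nt form of Y1, 36.7% in RES, where it was the 31-nt form, and 33.6% in CON, where it was again the 32-nt form. The first 3 held 84.0% in OVER, 91.3% in RES and 86.0% in CON, and the first 10 held 92.1%, 95.3% and 93.1%. It took 221 sequences to reach 99% of the reads in OVER, 114 in RES and 180 in CON. The inverse Simpson number, the count of equally abundant sequences that would give the same concentration, was 3.61 in OVER, 3.41 in RES and 3.92 in CON. RES thus had the more concentrated pool by these measures except the share of the first sequence, where OVER and RES were 36.9% and 36.7%. Among all sequences of a library, the 31-nt form of Y1 ranked 7 in OVER, 1 in RES and 5 in CON, the 32-nt form 5, 2 and 4, and the 33-nt form 19, 3 and 7. The leading Y4 sequence ranked 84 in OVER, 442 in RES and 58 in CON.

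Most of the distinct sequences were rare. Of the 2759 members, 1310 were found in OVER, 1770 in RES and 1600 in CON, and 500, 658 and 632 of these had a single read. The 684 sequences found in all 3 libraries held 99.7% of Y RNA reads in OVER, 99.8% in RES and 99.7% in CON. The 1522 sequences of 1 library had at most 75 reads each. Only 240 sequences had at least 100 reads over the 3 libraries. Grouped by their first 15 bases, the members formed 538 families, 251 of them with 1 sequence. The first 8 families held 98.1% of Y RNA reads in OVER, 99% in RES and 98.6% in CON.

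The leading families were shifted copies of the same arms. The family beginning ggctggtccgaaggt, the Y1 5′ arm from base 1, held 427 sequences and 89.3% of Y RNA reads in OVER, 95.8% in RES and 91.7% in CON. The families beginning gctggtccgaaggta, ctggtccgaaggtag and tggtccgaaggtagt start 1, 2 and 3 bases further in. Their RES over CON log2 ratios, 0.998, 0.989 and 1.25, were close to the 1.12 of the full arm. The family beginning gactggtccgaaggt differs from the arm by G2A and had 70.9 RPM in OVER, 303.3 RPM in RES and 138.6 RPM in CON, again with the order of Y1. The Y4 family, beginning ggctggtccgatggt, had 1593 RPM in OVER, 220.7 RPM in RES and 2175 RPM in CON. On the 3′ side, the family beginning cttctcactactgca had 1266 RPM in OVER, 2749 RPM in RES and 1954 RPM in CON. The family that begins 1 base later, ttctcactactgcac, had 472.4 RPM in OVER, 710.3 RPM in RES and 387.9 RPM in CON. Among reads of 25 to 40 nt alone its signs changed, to -2.10 for OVER over CON and -0.67 for RES over CON, since its short forms carried the higher values.

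Counted sequence by sequence, RES lay above CON and OVER lay below RES for many more members than the reverse. Sequences with at least 100 reads in the 2 libraries compared were counted as apart when their RPM differed at least 2-fold. Between RES and CON, 221 members could be counted, of which 119 were higher in RES and 28 were lower. Over all 11737 sequences with that many reads, 26.8% were higher and 13.9% were lower in RES. The share of higher members, 53.8%, is above that background, and the share of lower ones, 12.7%, is near it. The members' median log2 ratio was 1.07, against 0.20 over all sequences. By type, 81 of 142 Y1 5′ sequences were higher and 12 lower, and 4 of 4 sequences of the unnamed 5′ group were lower. Of 8 sequences typed as Y4 5′, 1 was higher and 6 were lower. The higher sequence, with 78 reads in RES and 28 in CON, is the Y1 5′ fragment with A12T. That change turns AGG into TGG, so its Y4 type rests on this base alone. The other 2538 members had too few reads to be counted.

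Between OVER and CON, members above 2-fold in OVER were few beside the background. Of 123 sequences, 10 were higher and 46 lower in OVER, while 34.5% of all 9319 sequences were higher and 34.7% lower. The share of lower members, 37.4%, is near that background, and the share of higher ones, 8.13%, is below it. The median log2 ratio was -0.78 for members and -0.08 for all sequences. Between OVER and RES, 11 of 189 members were higher and 144 lower in OVER, beside 25.4% and 37.8% of all 11256 sequences, with medians of -1.85 and -0.39. Families gave 34 of 59 higher and 9 lower in RES than in CON, beside 18.2% and 15% of all families. They gave 7 of 45 higher and 15 lower in OVER than in CON, beside 28.3% and 28.5%, and 10 of 59 higher and 41 lower in OVER than in RES, beside 24.5% and 28.9%. With sequences of at least 20 reads counted, the share over all sequences was 35.8% higher and 36.1% lower in OVER than in CON, beside 46 and 171 of 380 members. It was 26.7% higher and 19.3% lower in RES than in CON, beside 215 and 72 of 450 members, and 28.9% higher and 36.3% lower in OVER than in RES, beside 50 and 282 of 429 members. The members largely share 1 sequence, so these counts describe 1 abundant fragment and its variants, not independent RNAs.

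**Figure D4:**
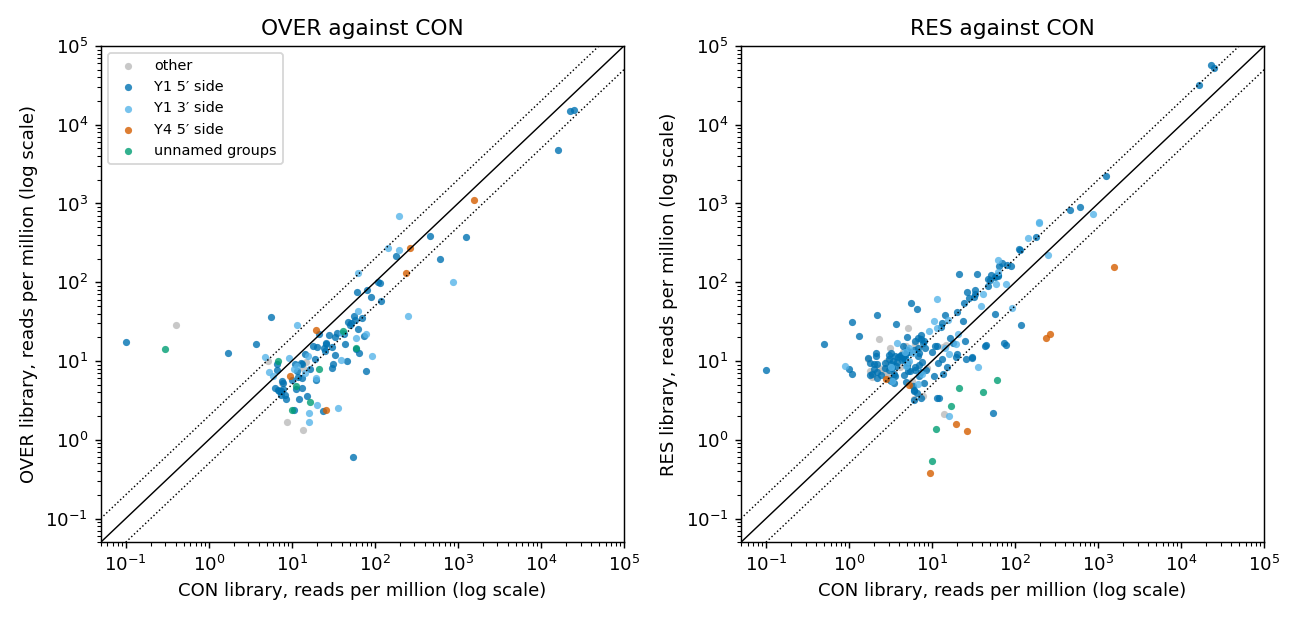
RPM of single Y RNA sequences with at least 100 reads in the 2 libraries, OVER against CON on the left and RES against CON on the right (log axes, solid line equal levels, dotted lines 2-fold). In the right panel Y1 5′ sequences gather above the line, with 81 of 142 at least 2-fold higher in RES. Of 8 sequences typed as Y4 5′, 6 lie at least 2-fold below the line. The 1 that lies at least 2-fold above it is the Y1 5′ fragment with A12T.

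The 5 sequences that stood furthest above CON in OVER were all short forms of 15 to 19 nt. The first 16 bases of Y1, ggctggtccgaaggta, had 145 reads in OVER, 100 in RES and 1 in CON, or 17.5, 7.60 and 0.100 RPM. With 1 read in CON its OVER over CON ratio of 7.45 has a counting interval of 4.95 to 12.76. The 18-nt sequence accatgtttgactgactg of the unnamed 3′ group had 14.1 RPM in OVER, 0.380 RPM in RES and 0.300 RPM in CON. The 15-nt sequence atgtttgactgactg holds the last bases of that form but not CCATGT, so it is not counted in the group, and it had 28.5 RPM in OVER, 0.456 RPM in RES and 0.401 RPM in CON. The 15-nt and 18-nt forms were thus high in OVER alone, and the 16-nt form was high in OVER and RES. The 5 sequences furthest below CON in OVER were of mixed kinds. The 33-nt sequence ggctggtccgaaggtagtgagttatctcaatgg had 0.603 RPM in OVER, 2.20 RPM in RES and 53.9 RPM in CON, and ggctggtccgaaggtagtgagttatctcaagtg had 7.48, 16.1 and 78.2 RPM. Both share the first 30 bases of the Y1 5′ fragment and differ from it after them, and both were highest in CON. The others were exact forms of their arms. The 29-nt form of the Y1 3′ arm, cttctcactactgcacttgactagtcttt, had 2.53 RPM in OVER, 8.51 RPM in RES and 35.6 RPM in CON. The leading Y3 5′ sequence printed above had 1.33 RPM in OVER, 2.13 RPM in RES and 13.8 RPM in CON. The 36-nt Y4 form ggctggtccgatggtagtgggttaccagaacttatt had 2.41 RPM in OVER, 1.29 RPM in RES and 26.04 RPM in CON.

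The sequences that stood furthest above CON in RES, after the 16-nt form, had a changed or uncalled base at the start of Y1. The 31-nt form with the uncalled base G2N had 1.33 RPM in OVER, 38.2 RPM in RES and 2.20 RPM in CON. The form with G1C had 1.09 RPM in OVER, 16.3 RPM in RES and 0.501 RPM in CON. An uncalled base at position 2 was found in 0.00562% of all OVER reads, 0.0625% of all RES reads and 0.00577% of all CON reads. Among Y RNA reads the shares were 0.00609%, 0.0627% and 0.00663%, so an uncalled base at position 2 was about as frequent among Y RNA reads as in the whole library. This does not hold at every position. In RES, position 28 was uncalled in 0.00688% of all reads and 0.000197% of Y RNA reads, and position 31 in 0.00359% and 0.00822%.

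Reads with 1 base changed were rare next to the exact Y1 fragment. Of the 31-nt Y1 reads and their 1-base variants, 3.33% were variants in OVER, 2.12% in RES and 2.77% in CON. The last base carried much of this, with 1.65% in OVER, 0.731% in RES and 1.04% in CON. The commonest variant was T31C, printed with the changed base in capitals.
Y1 5′ fragment with T31C: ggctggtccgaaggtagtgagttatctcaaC
It made up 1.43% of these reads in OVER, 0.644% in RES and 0.773% in CON. The variant G2A made up 0.201% in OVER, 0.211% in RES and 0.2204% in CON, and C3T 0.111%, 0.132% and 0.112%. Both G2A and C3T were nearly alike in all 3 libraries, unlike T31C. Other variants differed as well. T31A, which ranked between G2A and C3T, made up 0.217% in OVER, 0.0685% in RES and 0.245% in CON. T27A and T4G, next in rank, were also lowest in RES, at 0.0311% and 0.0214%. They made up 0.0884% and 0.0987% in OVER and 0.109% and 0.0871% in CON. Some rarer variants went the other way, such as A20G with 0.0126% in OVER, 0.0265% in RES and 0.0194% in CON. The median variant made up 0.0111% of reads in OVER, 0.00827% in RES and 0.0104% in CON.

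**Figure D5:**
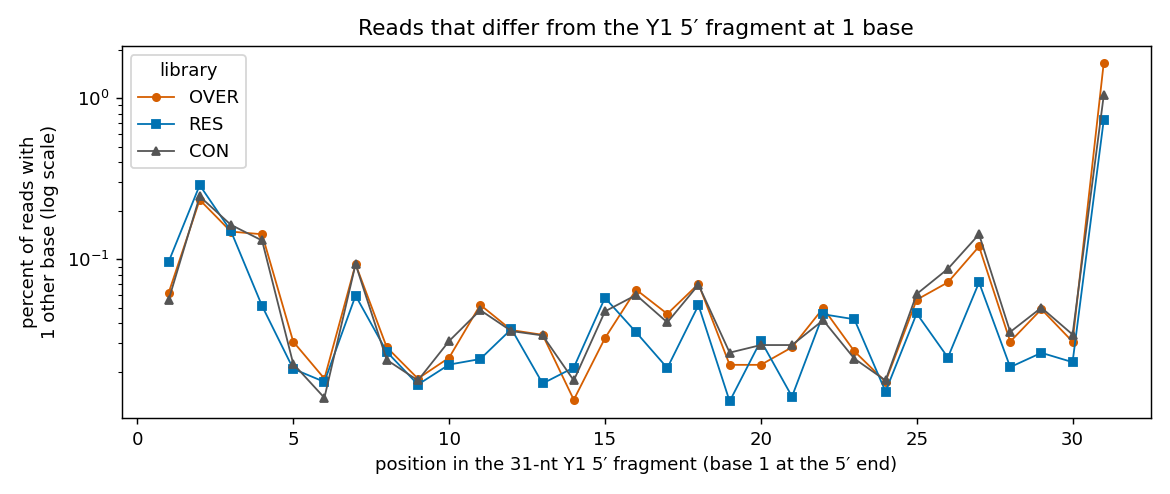
Percent of 31-nt Y1 5′ reads that carry 1 other base (y axis, log scale) at each position (x axis, base 1 at the 5′ end) in the OVER, RES and CON libraries. The last base is the highest in each library, at 1.65% in OVER, 0.731% in RES and 1.04% in CON.

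The 5′ side exceeded the 3′ side for Y1 and Y4 in each library, but the order of the libraries depended on the typing of the 3′ reads. For Y1 there were 20.8 reads of the 5′ side for each read of the 3′ side in OVER, 41.0 in RES and 28.4 in CON when typed by the bases before the motif, and 185.3, 123.0 and 47.0 when typed by the bases after it. For Y4 the ratios were 151.4 in OVER, 79.4 in RES and 47.0 in CON by the bases before the motif, on 88, 37 and 466 reads of the 3′ side. By the bases after it they were 48.99, 66.73 and 55.997, on 272, 44 and 391 reads, which puts OVER lowest in place of highest. For Y3 the ratios were 0.893 in OVER, 0.393 in RES and 2.64 in CON by the bases before the motif. The Y3 3′ side was thus the larger in OVER and RES. By the bases after the motif it had 19, 20 and 27 reads, against 50, 70 and 206 of the Y3 5′ side. The unnamed arms, if set against each other, gave 0.646 reads of the 5′ group for each read of the 3′ group in OVER, 1.45 in RES and 1.45 in CON. Reads shorter than the 15-nt limit were not measured, and the 3′ arms are the shorter fragments. The excess of 5′ reads for Y1 and Y4 therefore holds for the sizes sequenced.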

How the data were processed

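Per the labels' protocols, RNA from detergent-treated sperm of F1 rams was size-selected and sequenced as small RNA libraries. The authors deposited 9 tables, 3 a group, with per distinct sequence its length, its whole-number count of reads, a genome flag and annotation terms. The deposited read counts are raw. Of tools, the submitters' processing notes list edgeR. No aligner, annotation source or genome build was named in what was used here. The 3 tables of each group agreed in every sequence and count, so 1 was used per group. Members and lists were chosen with earlier results of these data known.

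Python 3.11.15 with pandas 2.3.3, scipy 1.17.1 and matplotlib 3.10.9 was used. Counts were divided by all reads of the library. Shares have exact Clopper-Pearson 95% intervals, log2 ratios the exact binomial interval of the 2 counts, and the count limit was 3 reads. Named sequences were the 10 highest by mean RPM, the 5 highest and 5 lowest log2 ratios in each comparison among sequences with at least 100 reads in the 2 libraries, the 8 leading families and every type. A few of the sequences this rule takes are left to the counts. Ends were counted among exact leading parts of the longest genome-matching member with at least 20 reads. The alternatives were TMM (edgeR 4.0.16, R 4.3.3), DESeq2 1.42.0 size factors, annotated reads as the denominator, 12 or 20 first bases, 1 mismatch in the motif, filters of 10 and 20 reads, lengths of 25 to 40 nt, and, added after the data were seen, lengths of 29 to 34 nt. Genome-matching sequences only, and sequences with the Y RNA term alone, were also taken. Other settings were the 3′ typing by the bases before the motif and a level with the unannotated motif reads added. The ratio calculation was tested on simulated data. The depth sets the precision of rare groups: intervals and limits cover counting error only, since reads without molecular identifiers are not independent molecules.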

Additional observations from a re-analysis of the deposited data

Results flagged for a closer look

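Reads antisense to Y RNA appeared outside the members, and they were looked at because a signal outside the measured class exceeded the limit of 3 reads. There were 7 reads in 4 sequences of 15 to 16 nt in OVER, 2 reads in 2 sequences in RES and 0 reads in CON.

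Reads without an annotation that held the 5′ motif and its typing bases stood at 161.0 RPM in OVER, 413.0 RPM in RES and 377.1 RPM in CON, above the same limit. Of these reads 86.6% in OVER, 78.5% in RES and 87.2% in CON did not match the genome of the tables. That flag is not an exact match. It was missing from 0 members in OVER, 1 in RES and 0 in CON, although forms with an uncalled base are among the members. One form of the unannotated reads was the Y1 5′ fragment of 34 bases with extra A bases at its end, printed with the extra bases in capitals.
Y1 5′ fragment with 2 extra bases: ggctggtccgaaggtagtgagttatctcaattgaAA
It had 78 reads in OVER, 1250 in RES and 445 in CON. All such unannotated A-tailed forms together had 37.1 reads per 100000 reads of the Y1 5′ arm in OVER, 89.5 in RES and 97.9 in CON. The form with 1 extra A is not among them, since the tables give it as a genome-matching Y RNA, and it was counted as a member. It had 518.3 reads per 100000 reads of the Y1 5′ arm in OVER, 600.7 in RES and 887.8 in CON. The source of the extra bases was not tested.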

How the results depend on the processing

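No paired analysis was possible because the 3 tables of a group are identical, and for the same reason no replicate could be left out. Of 408 recomputed log2 values, 0 that were at least 2-fold apart changed sign and 13 smaller ones did, among them OVER over CON for the whole class and for the Y1 and Y4 5′ arms within 29 to 34 nt, and RES over CON for the Y1 and Y3 3′ arms with the way of typing. The 408 include 45 values for genome-matching sequences only and 45 for the Y RNA term alone. Each of these settings left out at most 1 member of a library, so these values could hardly move. The Y RNA level, for OVER over CON, RES over CON and OVER over RES in this order, was -0.92, 1.04 and -1.97 with TMM, -0.96, 0.83 and -1.79 per annotated read, -0.88, 1.05 and -1.93 at 25 to 40 nt, 0.40, 1.27 and -0.87 per read of 29 to 34 nt, and 0.38, 1.08 and -0.70 per annotated read of 29 to 34 nt. DESeq2 size factors gave 1.12 for RES over CON and -1.95 for OVER over RES. For the Y4 5′ arm the values were -0.54 (OVER over CON) and 2.77 (OVER over RES) with TMM, -3.23 (RES over CON) and 2.79 (OVER over RES) with DESeq2, and -0.57, -3.53 and 2.95 per annotated read. Per read of 29 to 34 nt they were 0.82, -3.10 and 3.92, and per annotated read of that length 0.80 for OVER over CON and 4.09 for OVER over RES, so OVER then stood above CON. At 25 to 40 nt the 31 to 33 nt share was 94.5% in OVER, 94.7% in RES and 92.8% in CON, and with at least 10 reads it was 91.0%, 93.6% and 92.1%. The first sequence held 38.5% in OVER, 37.2% in RES and 33.9% in CON at 25 to 40 nt. At that length 1 sequence and 1 family were higher in OVER than in CON, and 7 sequences and 4 families in OVER than in RES. With at least 20 reads, 46 of 380 sequences were higher and 171 lower in OVER than in CON (35.8% and 36.1% over all sequences), 215 and 72 of 450 in RES than in CON (26.7% and 19.3%), and 50 and 282 of 429 in OVER than in RES (28.9% and 36.3%). The cause was not tested, except that the 25 to 40 nt window removes the short forms of OVER by construction.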
